A study of Mus musculus with 8 samples.

Results

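The genes described here are the core loop of the circadian clock in mouse liver: the activator genes Arntl, Clock and Npas2, the repressor genes Per1, Per2, Per3, Cry1 and Ciart, and the nuclear receptor genes Nr1d1 and Nr1d2. They are 10 of the 27453 genes listed in the data. The genes were chosen by symbol with the difference between the O-titled and Y-titled libraries of these same data already known, so that difference is described below and not tested for them. Reads were summed over each gene's listed transcripts.

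Each library is nanopore direct RNA sequencing, in which native polyadenylated RNA molecules are read through a pore with no amplified copy, of the liver of 1 mouse of the inbred strain C57BL/6JN. The 4 O-titled libraries come from 2 males (replicates 1 and 2) and 2 females (replicates 3 and 4), and so do the 4 Y-titled libraries. By the age field the O-titled animals were 12 weeks and the Y-titled animals 80 weeks old, whereas the series text describes old mice of about 18 months and young mice of about 2 months, and the treatment field of all 8 libraries names the old mice as the treated group. The groups are therefore called by their titles, with no age attached, and a positive log2 fold means a higher level in O-titled livers. The hour at which the livers were taken is not given in the sources used here, and its part in the differences below was not tested.

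The clock of a liver cell is a feedback loop of transcription. The proteins of Arntl (also called Bmal1) and of Clock or its paralog Npas2 form a dimer that binds E-box sequences and activates the Per, Cry, Nr1d and Ciart genes. The PER, CRY and CIART proteins then repress that dimer, while NR1D1 and NR1D2 (also called REV-ERB alpha and beta) repress Arntl, Clock and Npas2 through the response element that they share with the activating ROR receptors. In mouse liver the activator and the repressor mRNAs therefore peak at different hours of the day, and feeding times can shift both.

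Promoter windows of 300 bases, from 250 before to 50 after an annotated start, were available for 9 of the 10 genes from RefSeq on GRCm38.p6 (Per2 had none). They were searched on both strands for the E-box CACGTG, which is the same on both strands, for the D-box TTATGTAA or TTACGTAA, and for the ROR response element, and no match overlapped another. Of the 13 windows of the 9 genes, 3 held an E-box, 1 held D-boxes and 1 held a ROR response element, while over all 32851 windows the shares were 7.15%, 1.06% and 0.384%. The 5 windows with a match are shown because they hold letters through which the loop's proteins or, for D-boxes, other clock proteins are known to act. Capitals mark the matches, and each window runs 5′ to 3′ on the strand of its gene.

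Ciart, GRCm38.p6 chr3:95882179-95882478, minus strand, 3 E-boxes:
Ciart: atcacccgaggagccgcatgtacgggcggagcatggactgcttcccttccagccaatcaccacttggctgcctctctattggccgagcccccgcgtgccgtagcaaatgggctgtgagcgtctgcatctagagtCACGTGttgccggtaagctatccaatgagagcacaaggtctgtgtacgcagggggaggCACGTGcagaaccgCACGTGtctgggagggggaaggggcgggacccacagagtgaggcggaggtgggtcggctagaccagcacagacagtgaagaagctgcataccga
Per1, GRCm38.p6 chr11:69098699-69098998, plus strand, 1 E-box:
Per1: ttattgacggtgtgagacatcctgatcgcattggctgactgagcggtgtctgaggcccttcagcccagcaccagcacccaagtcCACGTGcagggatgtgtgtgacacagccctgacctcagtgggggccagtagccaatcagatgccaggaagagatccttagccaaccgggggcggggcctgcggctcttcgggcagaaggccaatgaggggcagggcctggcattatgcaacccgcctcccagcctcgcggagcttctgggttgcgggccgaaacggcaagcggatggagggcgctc
Cry1, GRCm38.p6 chr10:85185005-85185304, minus strand, 1 E-box:
Cry1: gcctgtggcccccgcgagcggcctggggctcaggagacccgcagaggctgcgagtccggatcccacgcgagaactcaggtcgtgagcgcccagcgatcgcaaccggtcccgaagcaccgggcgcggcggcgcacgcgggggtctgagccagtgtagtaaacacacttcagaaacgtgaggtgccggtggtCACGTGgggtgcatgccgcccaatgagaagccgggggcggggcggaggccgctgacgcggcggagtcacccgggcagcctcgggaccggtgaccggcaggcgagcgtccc
Per3, GRCm38.p6 chr4:151044616-151044915, minus strand, 2 D-boxes:
Per3: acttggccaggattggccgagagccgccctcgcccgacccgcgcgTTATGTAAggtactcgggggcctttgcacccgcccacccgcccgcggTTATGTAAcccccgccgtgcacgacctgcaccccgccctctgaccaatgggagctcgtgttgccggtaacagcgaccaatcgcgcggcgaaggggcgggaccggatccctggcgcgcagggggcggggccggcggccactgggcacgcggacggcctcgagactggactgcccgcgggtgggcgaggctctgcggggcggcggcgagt
Arntl, GRCm38.p6 chr7:113207261-113207560, plus strand, 1 ROR response element:
Arntl: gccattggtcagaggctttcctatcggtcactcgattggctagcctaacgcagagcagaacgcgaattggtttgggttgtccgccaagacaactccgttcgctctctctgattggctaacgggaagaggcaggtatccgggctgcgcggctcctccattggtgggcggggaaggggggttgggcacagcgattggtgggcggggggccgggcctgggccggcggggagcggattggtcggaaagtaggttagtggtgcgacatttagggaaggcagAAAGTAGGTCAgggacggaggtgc

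The E-boxes of Ciart began 116, 58 and 44 bases before its start, that of Per1 166 bases and that of Cry1 60 bases before theirs. The D-boxes of Per3 began 205 and 158 bases before its start, and the element of Arntl lay 26 bases after the start of the later of its windows. A match is a run of letters and not a measured binding site, and a window without a match says nothing of sites outside it.

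**Figure D1:**
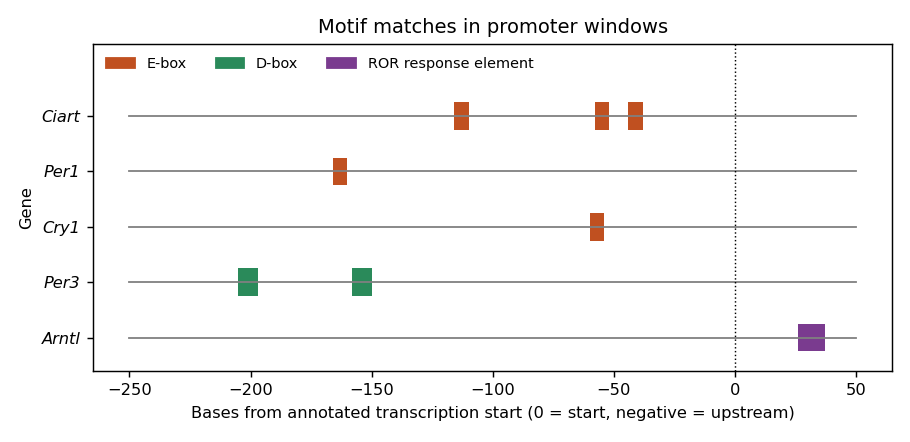
Motif matches in the promoter windows of Ciart, Per1, Cry1, Per3 and Arntl. The x axis is the distance in bases from the annotated start (0, dotted line), grey lines are the 300-base windows and coloured boxes are matches; Ciart carries 3 E-boxes, Per1 and Cry1 carry 1 each, Per3 carries 2 D-boxes and Arntl carries 1 ROR response element.

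The depth of the libraries was 545171 to 2593200 mapped reads, and the 10 genes together took 0.0129% to 0.0194% of them, which is 142 to 385 reads in the O-titled and 79 to 245 reads in the Y-titled libraries. Levels are given as CPM (counts-per-million of mapped reads), after scaling by edgeR's trimmed mean of M values (TMM). A floor of 3 reads corresponds to 1.13 to 5.83 CPM, depending on the library. The livers carried their defining markers, with Alb, the serum albumin gene, at 47858 to 65372 CPM in the O-titled and at 42294 to 78352 CPM in the Y-titled libraries. The summed levels of 8 marker lists overlapped between the groups: hepatocytes (9 of 9 genes found), Kupffer cells and macrophages (12 of 12), sinusoidal endothelium (9 of 9), stellate cells (8 of 8), cholangiocytes (5 of 5), T and B cells (7 of 8), neutrophils (5 of 5) and red cells (5 of 5). Hepatocyte markers summed to 77670 to 107420 CPM in the O-titled and to 89269 to 129552 CPM in the Y-titled libraries, and Kupffer cell markers to 564 to 1511 CPM in the O-titled and to 672 to 802 CPM in the Y-titled libraries. The overlap of the Kupffer cell sums came from O-titled replicate 2 alone. Stellate cell markers summed to 342 to 397 CPM in the O-titled and to 239 to 375 CPM in the Y-titled libraries, and their overlap came from Y-titled replicate 3 alone. Overlapping sums do not show that the groups held the same cells. Single markers at an adjusted p of 0.05 or less in edgeR's fit were Fabp1, lower in O-titled livers, and Fcgr2b and Dcn, higher. No marker found was at 0 in every library. Each library is a separate animal, since the files carry 8 different animal numbers.

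In O-titled livers the activator genes Arntl and Clock were lower, and the repressor genes Per1, Per2, Per3 and Ciart higher, than in Y-titled livers. Arntl was nearly absent from O-titled livers, with 5 reads in all against 49 in Y-titled livers, and Ciart was nearly absent from Y-titled livers, with 63 reads in O-titled livers against 1. Of the receptor genes, Nr1d2 was higher and Nr1d1 lower in every O-titled library than in any Y-titled one. Npas2 and Cry1 overlapped between the groups. In these bulk samples fewer cells of a type and less RNA per cell cannot be told apart.

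The groups thus did not overlap for 8 of the 10 genes, 5 of them higher and 3 lower in O-titled livers. Among the 12190 genes with at least 8 reads the groups did not overlap for 7.1%, of which 3.65% were higher and 3.45% lower in O-titled libraries. Of the 10 genes 5 passed the count filter for edgeR's fit (Clock, Per1, Per2, Nr1d1 and Nr1d2), and 3 of these 5 (Per1, Per2 and Nr1d2, all higher) passed an adjusted p of 0.05, against 4.01% of the 6759 genes tested, or 2.09% higher and 1.92% lower. Per1 did not pass without O-titled replicate 4 (log2 fold 1.39), Y-titled replicate 1 (1.54) or Y-titled replicate 3 (1.25). The filter kept 6 or 7 of the 10 genes when a library was left out. Of those kept 5 of 7 passed without O-titled replicate 1, where 243 of 6977 tested genes did. Without O-titled replicate 3 it was 5 of 6, where 248 of 7075 tested genes passed. With all 8 libraries Per1 and Per2 passed the filter through the O-titled group, and Clock through the Y-titled group. In each case that was the group with the higher level. Because this contrast had chosen the genes, nothing is read from the counts of genes past the threshold or from the median that follows. The median log2 fold of the 5 genes was 1.02, while that of all tested genes was -0.00.

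**Figure D2:**
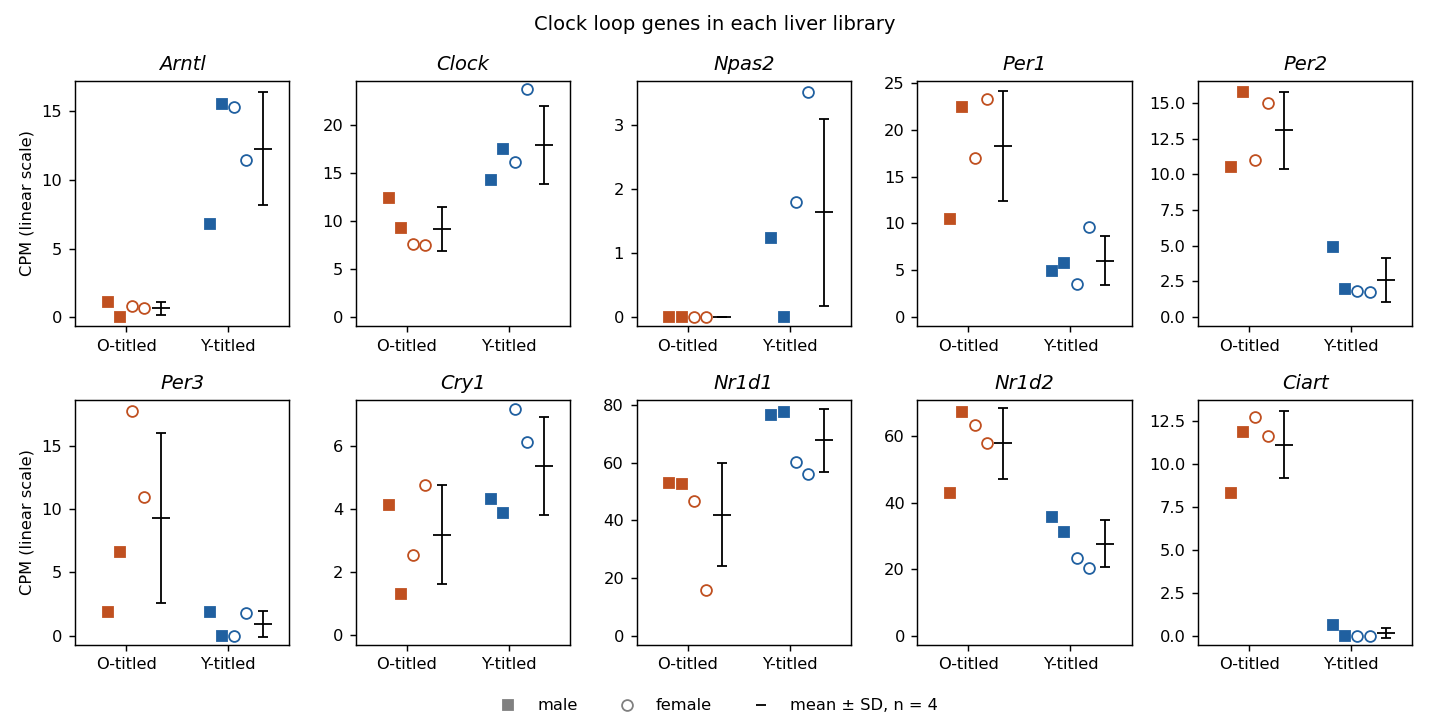
Level of each of the 10 clock loop genes in each liver library, in CPM on linear axes that start at 0, with 1 panel per gene. Squares are males, open circles are females, and the bars give mean ± SD of the 4 libraries of a group; Arntl, Clock and Nr1d1 lie lower and Per1, Per2, Per3, Nr1d2 and Ciart lie higher in all 4 O-titled libraries, while Npas2 and Cry1 overlap.

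Among the activators, Arntl encodes the subunit that the loop cannot run without. Arntl (ENSMUSG00000055116, mm10 chromosome 7, 113207465 to 113314126, plus strand) had 3, 0, 1 and 1 reads in O-titled replicates 1 to 4, against 11, 8, 17 and 13 reads in Y-titled replicates 1 to 4. Scaled for depth these were 1.13, 0, 0.846 and 0.683 CPM in O-titled livers and 6.79, 15.5, 15.3 and 11.4 CPM in Y-titled livers. Every Y-titled library lay above every O-titled one, and 3 of the 4 O-titled libraries lay under the floor of 3 reads. The mean was 0.664 ± 0.479 CPM in O-titled livers and 12.3 ± 4.10 CPM in Y-titled livers (SD, n = 4 each). The ratio of pooled reads per depth, O-titled over Y-titled, was 0.0738, with an exact 95% interval of 0.0229 to 0.184 that covers counting error only.

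Clock encodes the dimer partner of the Arntl protein, which is also an acetyltransferase. Clock (ENSMUSG00000029238, chromosome 5, 76209868 to 76304792, minus strand) was at 12.4, 9.22, 7.62 and 7.52 CPM in O-titled livers and at 14.2, 17.5, 16.2 and 23.7 CPM in Y-titled livers, from 60 and 77 reads. The groups lay apart, with replicate 1 of each group nearest to the other group. Means were 9.19 ± 2.28 CPM in O-titled livers and 17.9 ± 4.11 CPM in Y-titled livers (SD, n = 4 each), and the fitted log2 fold was -0.86 (SE 0.280).

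Npas2 encodes the paralog that can replace the Clock protein in the dimer. Npas2 (ENSMUSG00000026077, chromosome 1, 39193731 to 39363236, plus strand) had no read in the 4 O-titled libraries, against 2, 0, 2 and 4 reads in Y-titled replicates 1 to 4. Only Y-titled replicate 4 lay above the floor of its own library, and Y-titled replicate 2 had no read either.

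The Per genes encode the proteins that carry the CRY proteins into the nucleus and repress the dimer. Per1 (ENSMUSG00000020893, chromosome 11, 69095217 to 69109960, plus strand) was at 10.5, 22.4, 16.9 and 23.2 CPM in O-titled livers and at 4.94, 5.83, 3.59 and 9.66 CPM in Y-titled livers, from 99 and 26 reads. The lowest O-titled library, replicate 1, lay just above the highest Y-titled one, replicate 4. Means were 18.3 ± 5.87 CPM in O-titled livers and 6.01 ± 2.60 CPM in Y-titled livers (SD, n = 4 each), and the log2 fold was 1.52 (SE 0.349).

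Per2 (ENSMUSG00000055866, chromosome 1, 91415982 to 91459324, minus strand) was at 10.5, 15.8, 11.0 and 15.0 CPM in O-titled livers, against 4.94, 1.94, 1.80 and 1.76 CPM in Y-titled livers, from 75 and 13 reads. In Y-titled livers 8 of the 13 reads came from replicate 1, and the other 3 libraries had 1 or 2 reads each, under the floor. Means were 13.1 ± 2.71 CPM in O-titled livers and 2.61 ± 1.56 CPM in Y-titled livers (SD, n = 4 each). The log2 fold was 2.06 (SE 0.400), and 2.79 without Y-titled replicate 1.

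Per3, whose protein has a smaller part in keeping the rhythm in mice than those of Per1 and Per2, varied widely within the O-titled group. Per3 (ENSMUSG00000028957, chromosome 4, 151003652 to 151044665, minus strand) had 5, 5, 21 and 16 reads in O-titled replicates 1 to 4, against 3, 0, 0 and 2 reads in Y-titled replicates 1 to 4. In CPM these were 1.88, 6.58, 17.8 and 10.9 in O-titled livers and 1.85, 0, 0 and 1.76 in Y-titled livers. The groups lay apart only by the small step between O-titled replicate 1 and Y-titled replicate 1, both males, and both O-titled females lay above both O-titled males. The ratio of pooled reads per depth was 6.79, with an exact 95% interval of 2.71 to 21.9. Per3 overlaps Camta1 on the same strand, which had 18 reads in O-titled and 21 in Y-titled livers.

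Cry1 encodes the cryptochrome that represses the dimer most strongly and, among the repressor genes, peaks late. Cry1 (ENSMUSG00000020038, chromosome 10, 85131700 to 85185064, minus strand) was at 4.13, 1.32, 2.54 and 4.78 CPM in O-titled livers and at 4.32, 3.89, 7.19 and 6.15 CPM in Y-titled livers, from 22 and 24 reads. The groups overlapped, since O-titled replicate 4 lay above Y-titled replicates 1 and 2. The pooled ratio was 0.663, with an exact 95% interval of 0.354 to 1.23 that includes equal levels.

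Ciart encodes a further repressor of the dimer, also called Chrono. Ciart (ENSMUSG00000038550, chromosome 3, 95878503 to 95882251, minus strand) had 22, 9, 15 and 17 reads in O-titled replicates 1 to 4, against 1, 0, 0 and 0 reads in Y-titled replicates 1 to 4. The O-titled levels of 8.26, 11.9, 12.7 and 11.6 CPM were close to each other, with a mean of 11.1 ± 1.95 CPM (SD, n = 4), and the only Y-titled read, in replicate 1, gave 0.618 CPM. All 4 Y-titled libraries lay under the floor. The ratio of pooled reads per depth was 45.5, with an exact 95% interval of 7.88 to 1827 that rests on that single read. The promoter window of Ciart is the one with 3 E-boxes.

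Nr1d1 and Nr1d2 encode the receptors that repress Arntl, and they differed in opposite directions. Nr1d2 (ENSMUSG00000021775, chromosome 14, 18204054 to 18239127, minus strand) was at 42.8, 67.2, 63.5 and 58.1 CPM in O-titled livers and at 35.8, 31.1, 23.4 and 20.2 CPM in Y-titled livers. Means were 57.9 ± 10.7 CPM in O-titled livers and 27.6 ± 7.13 CPM in Y-titled livers (SD, n = 4 each), with a log2 fold of 1.02 (SE 0.206). All 4 O-titled libraries lay above all 4 Y-titled ones, with replicate 1 of each group nearest to the other group.

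Nr1d1 (ENSMUSG00000020889, chromosome 11, 98767932 to 98775333, minus strand) was at 53.0, 52.7, 46.6 and 15.7 CPM in O-titled livers and at 76.6, 77.7, 60.2 and 56.2 CPM in Y-titled livers. The groups did not overlap, O-titled replicates 1 to 3 lay within a narrow range, and O-titled replicate 4 was far below them. Means were 42.0 ± 17.8 CPM in O-titled livers and 67.7 ± 11.1 CPM in Y-titled livers (SD, n = 4 each), and the log2 fold was -0.72 (SE 0.237), or -0.44 without O-titled replicate 4. Nr1d1 overlaps Thra on the opposite strand, which had 36 reads in O-titled and 41 in Y-titled livers, and the use of strand in counting is not given in the sources used here, so reads of the overlap cannot be told apart.

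Across the 8 genes whose groups lay apart, the same O-titled library was always the one nearest to the Y-titled range: replicate 1, in 8 of 8 genes. Among Y-titled libraries replicate 1 was nearest to the O-titled range in 6 of 8 genes and replicate 4 in the other 2, Per1 and Nr1d1. Both replicate 1 libraries are males and the deepest of their group, with 2593200 mapped reads in the O-titled and 1722220 in the Y-titled one. For some genes the step within the O-titled group was small. Nr1d1 was at 53.0 CPM in replicate 1 and 52.7 CPM in replicate 2, and Per2 at 10.5 CPM in replicate 1 and 11.0 CPM in replicate 3. How often replicate 1 lay nearest among all genes whose groups lay apart was not counted. The pattern is therefore not shown to be particular to the clock loop genes. The part of sex, depth or animal in this was not tested. Without O-titled replicate 1 the log2 fold of Clock was -1.18, and without either library that of Nr1d2 was 1.27.

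**Figure D3:**
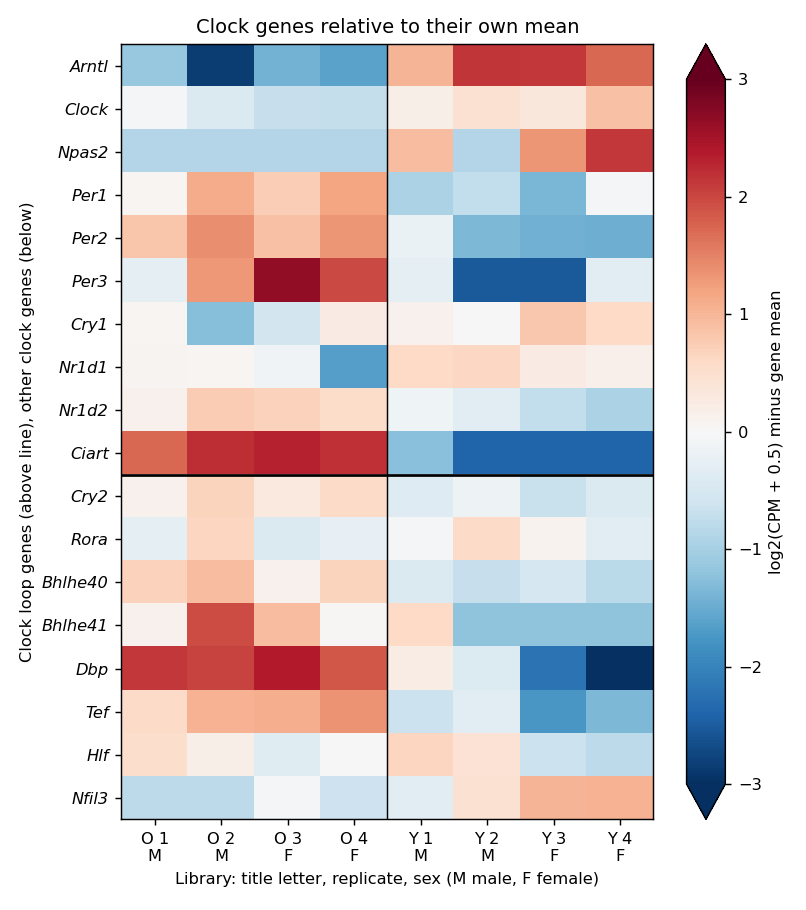
Clock loop genes (above the black line) and clock genes related to them (below it) in the 8 libraries, O-titled on the left and Y-titled on the right. Colour is log2(CPM + 0.5) minus the mean of that gene over the 8 libraries; Arntl is low and Ciart high in all O-titled columns, and the first column of each group is the palest for several genes, such as Clock and Nr1d2.

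The O-titled over Y-titled difference was also fitted within each sex, 2 libraries against 2. In females the log2 fold was -1.39 (SE 0.386) for Clock, 1.60 (0.470) for Per1, 2.83 (0.614) for Per2, -0.94 (0.355) for Nr1d1 and 1.48 (0.260) for Nr1d2. In males it was -0.39 (SE 0.373) for Clock, 1.42 (0.537) for Per1, 1.51 (0.518) for Per2, -0.54 (0.322) for Nr1d1 and 0.58 (0.252) for Nr1d2. The fold was thus larger in size in females for each of the 5 genes. In females 3 of the 5 passed the threshold (Per2 and Nr1d2 higher, Clock lower), where 5.47% of all tested genes did, 2.74% in each direction. In males 0 of the 5 did, where 1.26% of all tested genes did, 0.636% higher and 0.621% lower. The libraries are those whose title difference had chosen the genes, so nothing is read from the counts within a sex either.

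A test of whether the sexes differed in these log2 folds was made in edgeR's fit of 4 groups of sex and title. None of the 5 genes passed, and limma voom called none of them. DESeq2 gave an adjusted p for Nr1d1 and Nr1d2 alone and called neither. The fit called 0.385% of all tested genes, 0.148% with a more positive log2 fold in females and 0.237% with a more negative one. The log2 difference, females minus males, was 0.90 for Nr1d2 (SE 0.368, adjusted p = 0.499), 1.32 for Per2 (0.898, adjusted p = 0.770), -1.0 for Clock (0.539, adjusted p = 0.668), -0.41 for Nr1d1 (0.480, adjusted p = 0.906) and 0.18 for Per1 (0.776, adjusted p = 0.985). At an unadjusted p under 0.05 there was 1 gene, Nr1d2 (0.0247). With 2 libraries in each group of sex and title, standard errors of this size leave room for differences as large as the title difference itself, so the larger folds in females are not shown to be a sex difference.

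**Figure D4:**
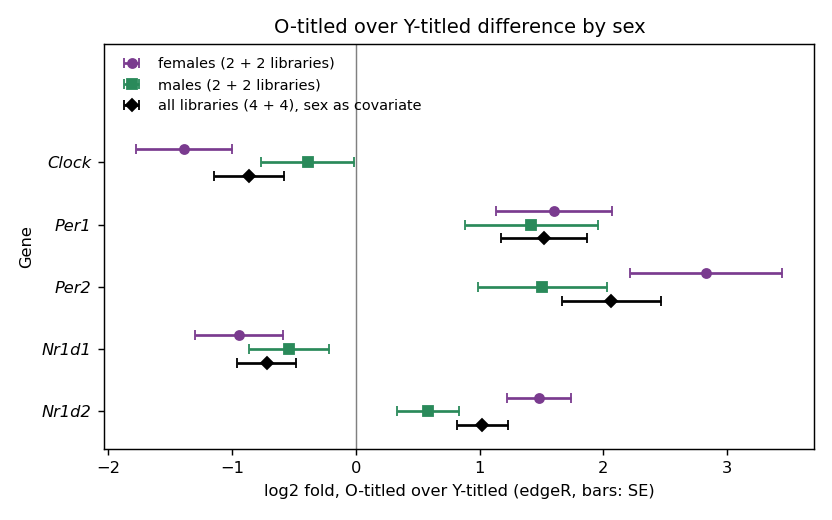
Log2 fold of the 5 clock loop genes that passed the count filter, O-titled over Y-titled, with bars of 1 SE. Circles are females (2 against 2 libraries), squares are males (2 against 2) and diamonds are all libraries with sex as a covariate; each gene has the same sign in both sexes, and the circles lie farther from 0 than the squares.

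Females were compared with males with title as a covariate, a contrast that had no part in choosing the genes. None of the 5 clock loop genes that passed the count filter was called in edgeR's quasi-likelihood test, DESeq2 or limma voom, where edgeR called 2.96% of all tested genes, 1.81% higher and 1.15% lower in females. Among these 5 Nr1d1 had the largest fold in size: it averaged 44.7 ± 20.1 CPM in females and 65.0 ± 14.1 CPM in males (SD, n = 4 each), a log2 fold of -0.59 (SE 0.237, adjusted p = 0.314). It was the 1 gene of the 5 at an unadjusted p under 0.05 (0.0284), and its log2 fold was -0.31 without O-titled replicate 4, the library with the lowest level. Per1 had a log2 fold of 0.49 (SE 0.327, adjusted p = 0.637), and the others were closer to 0, at -0.10 for Per2 (SE 0.352, adjusted p = 0.959), -0.09 for Nr1d2 (SE 0.202, adjusted p = 0.938) and -0.04 for Clock (SE 0.278, adjusted p = 0.983). With no count filter edgeR called 2 of the 10 genes, Nr1d1 (log2 -0.60, adjusted p = 0.0150) and Per3 (1.74, adjusted p = 0.0301). In that fit 401 of all 15751 genes were called, 234 higher and 167 lower in females.

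The 5 genes under the filter were compared between the sexes by an exact two-sided permutation test of log2(CPM + 0.5) of 4 females against 4 males (70 assignments, which allow no p below 0.0286). Unlike the fits above, this test did not take title into account. Adjusted over the 5431 genes under the filter with at least 8 reads, this design called 0%, and 243 of those genes had an unadjusted p under 0.05. With no p below 0.0286, an adjusted p of 0.05 could be reached only if most of the 5431 genes had that smallest p. The 0% was thus in effect set by the number of assignments, and nothing is read from it or from the adjusted values below. Per3 averaged 7.62 CPM in females and 2.58 CPM in males (exact p = 0.571, adjusted 0.95), and Cry1 5.17 CPM in females and 3.41 CPM in males (exact p = 0.286, adjusted 0.899). For Arntl, Npas2 and Ciart the exact p was 0.743, 0.429 and 0.914 (adjusted 0.974, 0.927 and 0.993). A p of this size does not show that the sexes had the same levels. Each sex held both title groups, between which most of these genes lay apart, and the title difference widened the spread within each sex. Per3, not called here, was called by edgeR with title as a covariate and no count filter, as given above.

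Each read is a molecule, or the 3′ part of one, assigned to an annotated transcript. For Per2, Per3, Cry1, Nr1d1, Nr1d2 and Npas2 all reads fell on 1 listed transcript. Reads covered part of most transcripts: the mean read length was 2275 nt for Per2, or 39.0% of a transcript of 5833 nt, 1818 nt for Nr1d1 (66.8% of 2721 nt), 1677 nt for Nr1d2 (36.0% of 4663 nt) and 1888 nt for Cry1 (62.4% of 3026 nt). The main Clock transcript, Clock-205, is 9744 nt long and its reads averaged 1872 nt, 19.2% of it. It held 39 of 60 Clock reads in O-titled and 56 of 77 in Y-titled livers, and nearly all other Clock reads fell on Clock-201. Of the 63 Ciart reads in O-titled livers 29 fell on Ciart-201, with a mean length of 91.6% of its 1398 nt, and 34 on the longer Ciart-202. The Arntl reads of Y-titled livers were spread over Arntl-204 (22 of 49), Arntl-201 (19) and Arntl-203 (8).

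Mean read length differed little between O-titled and Y-titled libraries as a whole, at 1156 to 1223 nt and 1168 to 1235 nt. For Nr1d1 it was 1819 nt over 259 O-titled reads and 1818 nt over 295 Y-titled reads. It was shorter in O-titled livers for Clock (1481 nt over 60 reads, against 1991 nt over 77 in Y-titled livers), for Per1 (1657 nt over 99 reads, against 2157 nt over 26) and for Nr1d2 (1630 nt over 325 reads, against 1801 nt over 123), and also for Arntl, Per2, Per3 and Cry1. These are means over pooled reads, given as a description with no test.

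Per1 had reads on 4 listed transcripts. Per1-201, the transcript that starts in the window with the E-box printed above, had 10, 5, 12 and 12 reads in O-titled replicates 1 to 4, against 1, 2, 0 and 0 in Y-titled ones. That is 39 of 99 Per1 reads in O-titled livers, or 39.4% (exact 95% interval 29.7% to 49.7%), and 3 of 26 in Y-titled livers, or 11.5% (2.45% to 30.2%). Per1-206, which starts downstream, had 29 of 99 reads in O-titled livers, or 29.3% (20.6% to 39.3%), and 14 of 26 in Y-titled livers, or 53.8% (33.4% to 73.4%). Its reads were also uneven between libraries, with 13, 5, 1 and 10 in O-titled replicates 1 to 4 and 2, 1, 3 and 8 in Y-titled ones, so 8 of the 14 Y-titled reads came from replicate 4. Reads of Per1-201 spanned on average 36.3% of its length, short of the 5′ end that sets it apart, and how a read that matched more than 1 transcript was assigned is not given in the sources used here.

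**Figure D5:**
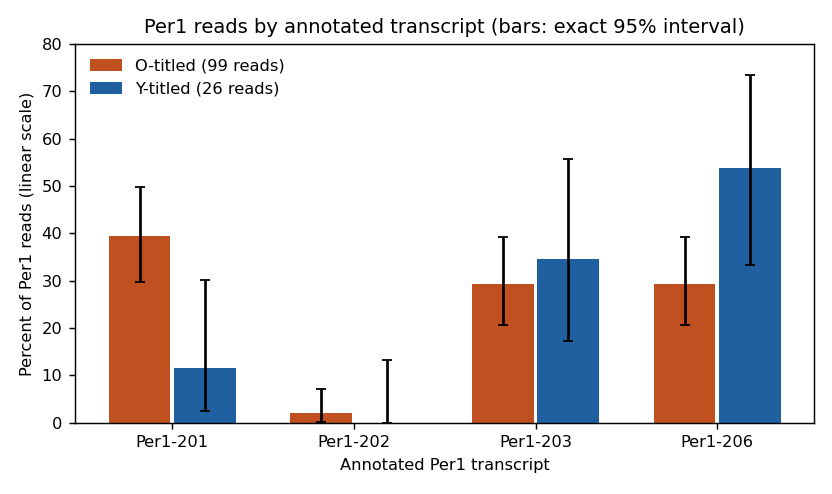
Share of Per1 reads on each of 4 annotated transcripts, in percent of the 99 O-titled and the 26 Y-titled reads, pooled over 4 libraries each. Bars start at 0 and error bars are exact 95% intervals that cover counting error only; Per1-201 holds 39.4% of O-titled and 11.5% of Y-titled reads, and Per1-206 holds 29.3% of O-titled and 53.8% of Y-titled reads.

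Other genes of the clock were described from a list of 38, which was also written with results of these data known. Their counts and adjusted p-values are therefore given as description, and nothing is read from them. Of the 38 genes, 30 passed the count filter: 5 rose, 1 fell and 24 did not pass in edgeR's fit of O-titled over Y-titled livers, where 2.09% of all tested genes rose and 1.92% fell. The median log2 fold of the 30 was 0.03, and that of all tested genes -0.00. The 5 that rose were Usp2, Tef, Noct, Bhlhe40 and Nampt. Kinases and cofactors of the loop, such as Csnk1d, Ncor1 and Hdac3, were among the 24, with log2 folds of 0.00, -0.16 and 0.14.

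Usp2 encodes a ubiquitin protease that acts on clock proteins, and it had 162 reads in O-titled and 6 in Y-titled livers, with a log2 fold of 4.29 (adjusted p = 6.3e-05). No Y-titled library had more than 3 reads of Usp2, so it passed the count filter through the O-titled libraries alone. Tef encodes an activator that binds D-boxes, the sequence found in the Per3 window. Tef averaged 90.3 ± 19.2 CPM in O-titled livers and 23.0 ± 10.2 CPM in Y-titled livers (SD, n = 4 each), a log2 fold of 2.02 (adjusted p = 0.00183). Nfil3, which encodes the repressor of the same D-boxes, was the gene that fell, at 9.55 ± 2.70 CPM in O-titled livers and 22.1 ± 8.55 CPM in Y-titled livers, a log2 fold of -1.12 (adjusted p = 0.0189). Nfil3 did not pass without O-titled replicate 4 (log2 -0.90), Y-titled replicate 3 (-1.08) or Y-titled replicate 4 (-1.06), nor without sex as a covariate (-1.20) or in males alone (-0.76).

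Dbp, a D-box activator whose mRNA is strongly rhythmic in mouse liver, had 363, 97, 193 and 167 reads in O-titled replicates 1 to 4, against 59, 12, 7 and 0 reads in Y-titled replicates 1 to 4. The groups lay far apart, with replicate 1 the highest of the Y-titled libraries. Its log2 fold of 3.07 (SE 0.668) missed the threshold in the fit with sex as a covariate (adjusted p = 0.0868), whereas in the fit of 4 groups it passed in females (log2 5.43, adjusted p = 3.02e-04) and in males (log2 2.04, adjusted p = 0.0317). DESeq2 (log2 3.71), limma voom (2.86) and the fit without Y-titled replicate 4, which had no read, also called it (2.65). Hlf, the remaining D-box activator, was at 21.6 ± 5.71 CPM in O-titled livers and 20.7 ± 10.2 CPM in Y-titled livers (log2 0.12, adjusted p = 0.866).

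Bhlhe40, a repressor that competes for E-boxes, averaged 103 ± 22.2 CPM in O-titled livers and 43.5 ± 5.12 CPM in Y-titled livers, a log2 fold of 1.21 (adjusted p = 1.67e-04). Its paralog Bhlhe41 had 8 reads in O-titled and 2 in Y-titled livers and was under the filter. Noct, a phosphatase of nicotinamide cofactors with a strong daily rhythm in liver, had a log2 fold of 1.34 (adjusted p = 1.67e-04), and Nampt, the enzyme of the nicotinamide salvage pathway that feeds back on the clock, one of 0.96 (adjusted p = 0.00646), which did not pass without sex as a covariate (log2 1.00) or in males alone (0.63). Cry2, the paralog of Cry1, was at 17.8 ± 3.17 CPM in O-titled livers and 9.82 ± 1.46 CPM in Y-titled livers without overlap, but missed the threshold (log2 0.84, SE 0.262, adjusted p = 0.0884), which it passed with library totals alone (log2 0.94). Rora, which encodes a receptor that activates Arntl, did not pass either, with a log2 fold of -0.16 (adjusted p = 0.813).

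The genes whose profile over the 8 libraries was nearest to that of a clock loop gene were found for Clock, the activator gene with the most reads, and for Nr1d1, the gene with the most reads of all 10. The measure was the root mean square distance between log2(CPM + 0.5) values centred on each gene's mean, among tested genes that varied by an SD of at least 0.5. Nearest to Clock were Nedd4l (0.223), Paxx (0.224), Il1r1 (0.224), Coq8a (0.225) and Fam20a (0.247). Nearest to Nr1d1 were Zfp672 (0.270), Inafm2 (0.270), Enpp2 (0.282), Pnpla7 (0.289) and Grhpr (0.290). These distances share the libraries and the title difference, and none of the 10 nearest genes was a clock loop gene or on the list of other clock genes.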

How the data were processed

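For each of 8 libraries the authors deposited whole-number counts of reads per transcript, not normalized, which add up to the mapped reads stated in the same table. The read lengths in nucleotides that the deposited tables also hold, per the file headers, were used for read length only. The submitters' processing notes name minimap2 2.24, build mm10 and DESeq2, without saying what DESeq2 was used for. Counting tool and annotation are not given in the sources used here. Between 84.6% and 88.2% of reads were mapped.

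Counts were summed to genes and fitted with edgeR 4.0.16 under R 4.3.3. The function filterByExpr, at a minimum count of 10 by title group, kept 6759 genes, libraries were scaled by TMM, and the robust quasi-likelihood test used title and sex as terms. P-values were adjusted by Benjamini-Hochberg over all tested genes at 0.05. A fit of 4 groups of sex and title gave values within each sex and the test between the sexes. Each SE is the log2 fold divided by the root of F. DESeq2 1.42.0 and limma 3.58.1 (voom) were alternatives, as were other scalings, no filter and leaving out each library. Exact permutation tests used scipy 1.17.1 under Python 3.11.15. The scripts were tested on simulated data. Gene positions come from GENCODE M21 on mm10.

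The genes, lists and tests were chosen with earlier results of these data known. Named in the text are all 10 clock loop genes, of the other clock genes those past the threshold or of the same paralog groups, and the 5 genes nearest in profile to Clock and to Nr1d1. Csnk1d, Ncor1 and Hdac3 were named with their values known, and some genes of the list are not reported here. The replicate numbers were not treated as pairs. Each library is another animal, and same-numbered libraries did not deviate together from the mean of their title and sex. The r was -0.06 for replicates 1 and 2 and -0.03 for replicates 3 and 4. With 2 libraries per title and sex, both replicates of a sex give the same r by construction. These values therefore do not show that the numbers mark no pairs. Intervals and floors cover counting error only.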

Additional observations from a re-analysis of the deposited data

Results flagged for a closer look

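Of 19 groups of 4 libraries that varied, 2 had a library whose gap to the nearest other library, as a share of the group's range, was above Dixon's 95% critical ratio, and chance flags about 1 group in 20. Per2 was at 4.94 CPM in Y-titled replicate 1, against 1.76 to 1.94 CPM in the other Y-titled libraries, a ratio of 0.941. Ciart was at 0.618 CPM in the same library, from 1 read, while the other Y-titled libraries had none. With reads in a single library the ratio is 1 at any level, so the flag of Ciart cannot be set against that chance rate. The level of Nr1d1 in O-titled replicate 4, 15.7 CPM, lay just under that limit, at a ratio of 0.828.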

How the results depend on the processing

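The sign of the O-titled over Y-titled log2 fold was kept in 85 of 85 alternative values for Clock, Per1, Per2, Nr1d1 and Nr1d2. With 1 library left out the log2 fold ran from -1.18 to -0.64 for Clock, 1.25 to 1.82 for Per1, 1.89 to 2.79 for Per2, -0.93 to -0.44 for Nr1d1 and 0.89 to 1.27 for Nr1d2. The count of clock loop genes past the threshold was 3 in the main analysis, where the filter kept 5 of them. It was 7 of 10 with no count filter (600 of 15751 over all genes) and 0 of 5 in males alone. With 1 library left out it was 3 to 5, but of the 6 or 7 clock loop genes that the filter then kept. Per1 was not past it without O-titled replicate 4 (log2 1.39), Y-titled replicate 1 (1.54) or Y-titled replicate 3 (1.25), or in limma voom (1.45), and Nr1d1 was past it without O-titled replicate 3 (-0.93). Between the sexes the count was 0, and 2 with no count filter; the cause was not tested. Small sex differences turned their sign: Clock to 0.042 and Nr1d2 to 0.0073 with library totals alone, Per2 to 0.011 in limma voom and Ciart, by its exact test, to 0.026 with 2 CPM added. With 1 library left out the log2 fold of females over males ran from -0.29 to 0.23 for Clock, -0.52 to 0.12 for Per2 and -0.39 to 0.089 for Nr1d2, and the difference between the sexes from -0.49 to 1.05 for Per1 and -1.33 to 0.24 for Nr1d1. With the replicate number as a block the log2 fold was 1.50 for Per1, 2.05 for Per2 and 1.01 for Nr1d2, each still past the threshold, -0.87 for Clock and -0.75 for Nr1d1, and 184 of all tested genes were called. Over all genes 271 were called for O-titled over Y-titled livers (141 higher, 130 lower), 340 with library totals alone (240 higher, 100 lower; the median of all genes then moved to 0.10), 600 with no filter, 134 with no sex covariate, 85 in males alone and 154 to 294 with 1 library left out. Calls between females and males numbered 200, with no filter 401, and of the difference between the sexes 26, with no filter 100, in limma voom 15 and with 1 library left out 8 to 45. The log2 fold of Hlf (-0.16 in males alone; -0.012 to 0.34 with 1 library left out) and that of Rora (-0.34 to 0.066 with 1 library left out) changed sign. Calls lost or gained for Nfil3, Nampt, Dbp and Cry2 stand beside their values. Depth limits Arntl, Npas2, Per3, Cry1 and Ciart to read numbers.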
